A study of Mus musculus with 6 samples.

Results

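The E12 knockout (E12KO) library was set against 3 wild-type (wt) libraries to find which E2A binding sites of neural stem cells have no peak without the E12 form of the protein, and which sites appear in its absence. Peaks of the 3 wt lists that overlapped by at least 1 bp were merged into 26817 regions, and the 12322 regions found in 2 or more wt lists are called wt consensus regions. A consensus region is called kept where an E12KO peak overlapped it (11908 regions) and lost where none did (414 regions). E12KO peaks that overlapped no wt peak are called E12KO-only (4621 of 25229 peaks). These 16943 sites are described here, and the wt replicate 3 list, the wt list closest in length to that of E12KO, served as the reference for what a further wt library misses or adds.

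The series holds 6 samples from E2A chromatin immunoprecipitation with sequencing (ChIP-seq), 1 of which is input DNA. Of the E2A samples, 3 of wt and 1 of E12KO are used here. All 4 came from neural stem cells of E12.5 mouse embryos, strain C57BL/6J, cultured with EGF and FGF-2 (20 ng/ml of each) so that they went on dividing. The genotypes are given as wildtype and as E12-/-, fixation was with EGS (1.5 mM, 20 min) followed by formaldehyde (1%, 10 min), and the same E2A antibody was used throughout. The labels do not say how E12 was removed, how many embryos the cells came from, whether the wt samples were separate cultures, or whether the antibody sees both forms equally. The identity of the cells cannot be checked from peak positions. With 1 E12KO library, no genotype difference has a replicate error and none was tested, and the intervals given are 95% Wilson intervals that cover counting error only.

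The Tcf3 gene encodes E2A, a transcription factor of the basic helix-loop-helix (bHLH) class. Alternative splicing of the exon that encodes the DNA-binding part gives the E12 and E47 proteins, which bind E-box DNA as dimers with each other or with cell-type bHLH factors. Id proteins pair with E proteins and keep them off DNA, and in neural progenitors this balance is known to bear on the choice between self-renewal and differentiation. E47 is the form of E2A that cells without E12 can still make.

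The promoter sequences below are shown as examples of the 3 kinds of site. Foxp4, a forkhead transcription factor gene, and Bcl2l2, which encodes the survival factor BCL-W, had lost promoter regions. P4ha1, a collagen prolyl hydroxylase subunit gene, had one of the widest E12KO-only promoter peaks. Ube2r2, which encodes a ubiquitin-conjugating enzyme, had one of the strongest kept promoters. Each sequence runs from 250 bases before to 50 bases after the start of transcription, 5′ to 3′, from RefSeq (GRCm38.p6), at chr17:47924583-47924882 (minus strand) for Foxp4, chr14:54883175-54883474 (plus) for Bcl2l2, chr10:59323046-59323345 (plus) for P4ha1 and chr4:41135771-41136070 (plus) for Ube2r2. Peak positions elsewhere in the text are in the mm9 build, so they cannot be laid over these coordinates. Capitals mark the E-box letters CAGCTG, a palindrome, or CAGGTG on either strand (read as CACCTG on the opposite strand).
Foxp4: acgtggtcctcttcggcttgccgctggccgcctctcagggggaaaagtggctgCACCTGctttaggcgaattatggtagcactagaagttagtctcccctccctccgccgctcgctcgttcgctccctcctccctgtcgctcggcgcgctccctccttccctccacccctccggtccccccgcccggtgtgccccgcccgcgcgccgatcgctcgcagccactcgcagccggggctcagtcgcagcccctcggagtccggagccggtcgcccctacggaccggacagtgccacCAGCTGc
Bcl2l2: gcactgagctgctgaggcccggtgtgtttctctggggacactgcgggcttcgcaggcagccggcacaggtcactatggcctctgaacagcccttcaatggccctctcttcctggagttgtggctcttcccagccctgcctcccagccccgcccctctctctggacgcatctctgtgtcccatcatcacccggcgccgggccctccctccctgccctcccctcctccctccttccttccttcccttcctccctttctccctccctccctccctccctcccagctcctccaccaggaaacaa
P4ha1: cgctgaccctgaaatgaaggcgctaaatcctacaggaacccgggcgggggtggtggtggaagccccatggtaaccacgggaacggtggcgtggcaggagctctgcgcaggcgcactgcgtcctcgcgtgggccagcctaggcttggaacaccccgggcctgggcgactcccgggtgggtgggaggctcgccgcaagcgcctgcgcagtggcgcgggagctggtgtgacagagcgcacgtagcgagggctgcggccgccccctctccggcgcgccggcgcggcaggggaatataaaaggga
Ube2r2: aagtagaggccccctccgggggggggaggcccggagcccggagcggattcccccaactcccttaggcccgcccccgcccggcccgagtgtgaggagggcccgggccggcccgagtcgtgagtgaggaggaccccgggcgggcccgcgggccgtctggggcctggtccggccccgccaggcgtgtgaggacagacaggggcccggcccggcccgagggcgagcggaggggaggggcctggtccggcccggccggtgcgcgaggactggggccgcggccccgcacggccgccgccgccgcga
Foxp4 holds 2 of these letter groups and the other promoters none. Among the 14731 protein-coding genes with 1 promoter in the RefSeq table, 15.0% hold CAGCTG and 19.3% hold CAGGTG within the same 300 bases.

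The wt lists held 6814, 12772 and 24194 peaks in replicates 1, 2 and 3, so the longest wt list and the E12KO list were close in length and the other lists much shorter. Together the peaks covered 3.26, 6.26 and 15.8 Mb in the wt lists and 18.6 Mb in E12KO. Median peak width was 432.5, 420 and 549 bp in wt replicates 1 to 3 and 616 bp in E12KO. No list gives its number of reads, so the depth behind each is unknown. Only the list of wt replicate 1 gives scores, and a fold enrichment below is the authors' value for the wt replicate 1 peak. Whether a missing peak reflects weaker binding, binding in fewer cells, or only the read depth or threshold of a list cannot be told apart.

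Most E2A sites of wt cells had a peak in cells without E12. Of the 12322 consensus regions, 96.6% were kept (96.3 to 96.9) and 414 were lost, which is 3.36% of them. Among the kept promoters with the highest −log10 q in wt replicate 1 were those of Ube2r2 (96.1-fold), the mitochondrial ornithine carrier gene Slc25a15 (79.8-fold) and the SUMO protease gene Senp7 (78.2-fold). Also among them were those of the ankyrin repeat gene Ankrd17 (73.0-fold), the single-stranded DNA binding protein gene Ssbp2 (70.6-fold) and the zinc finger gene Glis2 (68.7-fold). Their peaks in E12KO and wt replicate 3 were 1506 and 1673 bp wide at Ube2r2, 721 and 782 bp at Slc25a15, 1193 and 946 bp at Senp7, 1692 and 1639 bp at Ankrd17, 1266 and 1211 bp at Ssbp2, and 1233 and 1360 bp at Glis2. The E12KO peak was the wider one at Senp7, Ankrd17 and Ssbp2. Loss depended on which wt lists had the region. Of the 4228 regions in all 3 wt lists 17 were lost (0.402%), of the 6784 in wt replicates 2 and 3 only 178 (2.62%), and of the 1263 in wt replicates 1 and 3 only 207 (16.4%). Of the 47 regions in wt replicates 1 and 2 only, 12 were lost (25.5%).

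The E12KO list missed no more of these regions than a wt list of similar length. The 4263 regions shared by wt replicates 1 and 2 were chosen without either of the longer lists. Among them, 29 had no E12KO peak (0.68%) and 47 had no wt replicate 3 peak (1.1%), so that 99.3% were found in E12KO (99.02 to 99.5) and 98.9% in wt replicate 3 (98.5 to 99.2). The difference was 0.42 percentage points, with more found in E12KO, and the intervals overlap. Of the missing regions, 12 were missing from both lists, 17 from E12KO alone and 35 from wt replicate 3 alone. Counts by gene take a peak as belonging only to the gene that the authors' tables annotate to it, so another gene's peak may lie as near. Of the 1217 genes with such a region within 10 kb of the start site, 19 had no E12KO peak within 10 kb and 28 had no wt replicate 3 peak there. Regions chosen with wt replicate 3 were missed more often. E12KO lacked 224 of the 5491 regions shared by wt replicates 1 and 3 (4.08%). The wt replicate 2 list, which is much shorter than that of E12KO, lacked 1263 of them (23.0%). E12KO lacked 195 of the 11013 regions shared by wt replicates 2 and 3 (1.77%), and wt replicate 1, the shortest list, lacked 6784 (61.6%).

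**Figure D1:**
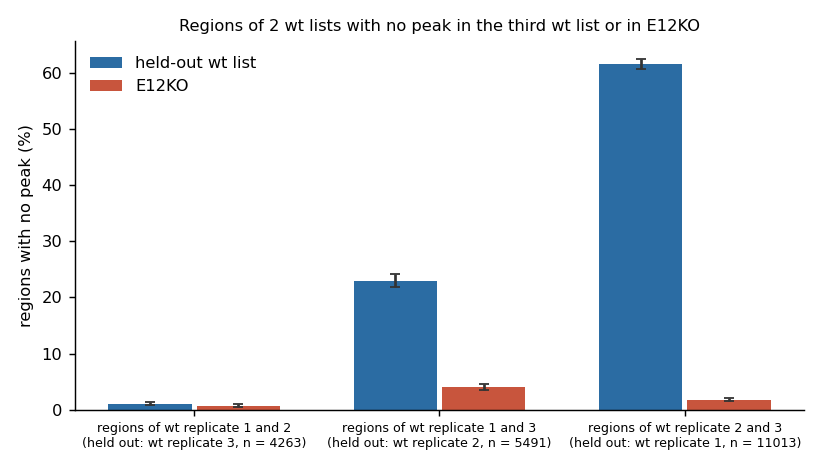
Share of regions with no peak, in percent on the vertical axis, for regions shared by each pair of wt lists (horizontal axis), in the wt list held out (blue) and in E12KO (red); bars are shares and error bars 95% Wilson intervals for counting error. E12KO lacked 0.68%, 4.08% and 1.77% of the regions and the held-out wt lists 1.10%, 23.0% and 61.6%. The lists of wt replicates 2 and 1, with the values 23.0% and 61.6%, are much shorter than that of E12KO.

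Weak and strong wt peaks were found in E12KO about as often as in wt replicate 3. When the 6814 peaks of wt replicate 1 were ranked by −log10 q and divided into 5 equal classes, 92.4% of the strongest class were found in E12KO, 92.2% in wt replicate 3 and 85.5% in wt replicate 2. In the weakest class the shares were 72.8%, 70.6% and 44.4%. The share found fell from each class to the next weaker one in all 3 lists, and the largest gap between E12KO and wt replicate 3 in any class was that of the weakest. Of the 500 strongest peaks, 34 had no E12KO peak, 35 no wt replicate 3 peak and 69 no wt replicate 2 peak. All 34 were also missing from wt replicate 2, so 0 of the 431 that wt replicate 2 held were missing from E12KO.

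**Figure D2:**
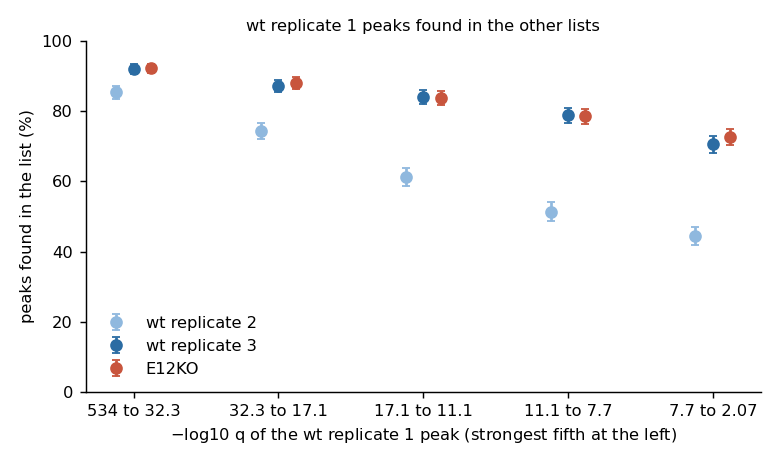
Percent of wt replicate 1 peaks found in wt replicate 2 (light blue), wt replicate 3 (dark blue) and E12KO (red), for 5 classes of wt replicate 1 strength (−log10 q, strongest at the left); points are shares and error bars 95% Wilson intervals for counting error. The E12KO and wt replicate 3 points lie close together in every class, from 92.4% and 92.2% down to 72.8% and 70.6%, above those of wt replicate 2.

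The lost regions found in all 3 wt lists numbered 17, and most lay away from promoters. Their fold enrichment ran from 4.60 to 12.6, and their median width in wt replicate 3 was 402 bp, against 841 bp for the kept regions in all 3 lists. The highest fold was at Sgk1, a serum- and glucocorticoid-regulated kinase gene, in an intron 41293 bp from the annotated start site (chromosome 10, 21643244 to 21643742), with peaks of 482, 256 and 460 bp in wt replicates 1 to 3. The nearest E12KO peak was 69752 bp away. Hopx, an atypical homeodomain gene expressed in radial glia, had an intergenic lost region 41909 bp upstream (chromosome 5, 77585947 to 77586493; 10.7-fold), with widths of 452, 427 and 378 bp in the wt lists. The region of Ndp, which encodes the Frizzled ligand norrin, lay in its first intron (chromosome X, 16483525 to 16484075; 7.48-fold), and an E12KO peak lay 655 bp from it. Rab23, a small GTPase gene of hedgehog signalling, lost a region in intron 4 (chromosome 1, 33786568 to 33787048; 7.34-fold), and Sema5b, a semaphorin gene, one in intron 1 (chromosome 16, 35581337 to 35581809; 5.51-fold). Other regions of the group were annotated to the GTPase-activating protein gene Arhgap5 (11.04-fold), Afap1 (9.26-fold), Sycp2 (9.15-fold), Lrrc8d (8.19-fold), the zinc finger gene Zfp608 (8.05-fold), the Mediator subunit gene Med13l (7.58-fold), the kinase gene Nuak1 (6.05-fold), the Nogo co-receptor gene Lingo1 (5.54-fold) and the tRNA modification gene Trit1 (5.39-fold). Promoters made up the rest. At Lcorl (chromosome 5, 46247593 to 46248199) the wt peaks were 414, 237 and 474 bp wide and an E12KO peak lay 351 bp away. At Gab1, which encodes an adaptor of receptor tyrosine kinases, they were 327, 280 and 1545 bp wide (chromosome 8, 83403302 to 83404846). At Ints6, an Integrator subunit gene, they were 403, 753 and 778 bp wide (chromosome 14, 63378622 to 63379407).

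The strongest lost regions were missing from a wt list as well. Of the 10 lost regions with the highest −log10 q in wt replicate 1, 9 had a peak in wt replicates 1 and 3 and none in wt replicate 2. The first was the Bcl2l2 promoter shown above (chromosome 14, 55501921 to 55502638), with 67.1-fold enrichment, a width of 718 bp in wt replicate 1 and 438 bp in wt replicate 3, and the nearest E12KO peak 10118 bp away. The promoter of Ubqln2, which encodes a ubiquitin-binding shuttle protein, followed at 44.1-fold (chromosome X, 149932210 to 149932785), with widths of 576 and 288 bp. Maml3, which encodes a Mastermind coactivator of Notch, had a region in intron 1, 2533 bp from the start site (chromosome 3, 51905790 to 51906598; 33.1-fold), with widths of 809 and 388 bp and an E12KO peak 2104 bp away. Thra, the thyroid hormone receptor alpha gene, had one in intron 1 (27.9-fold), with an E12KO peak 853 bp away. The kainate receptor gene Grik5 had a lost promoter region at 27.1-fold, Foxp4 one at 20.6-fold and the secretory carrier membrane protein gene Scamp5 one at 14.0-fold. Lost intergenic regions were annotated to Btg2, an antiproliferative gene known from neurogenic divisions (19.1-fold), and to the lipin gene Lpin1 (17.5-fold). The exception was the promoter of Kcnk3, a potassium channel gene, with peaks of 493 bp in wt replicate 1 and 375 bp in wt replicate 2 (21.4-fold) and none in wt replicate 3 or E12KO. Each of these regions was therefore missing from 1 wt list besides E12KO.

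A number of wide promoter peaks of wt replicate 3 had no E12KO peak. The widest were at Mus81, a structure-specific endonuclease gene (1851 bp in wt replicate 3 and 502 bp in wt replicate 1), and at Grip1, a glutamate receptor scaffold gene (1825 and 280 bp). Those at Lrba (1493 and 377 bp), the C/EBP delta gene Cebpd (1205 and 620 bp), the utrophin gene Utrn (1074 and 579 bp) and Sfmbt1 (1052 and 358 bp) were also in wt replicates 1 and 3 only. At the pyrophosphate transporter gene Ank (1346 bp in wt replicate 3 and 341 bp in wt replicate 2), the recycling endosome GTPase gene Rab11a (1304 and 402 bp) and the protein disulfide isomerase gene P4hb (1259 and 360 bp), the second wt list was replicate 2. Among promoter peaks of at least 1200 bp in wt replicate 3, 24 of 966 had no E12KO peak (2.48%). In the other direction, 173 of 1623 promoter peaks of that width in E12KO had no wt replicate 3 peak (10.7%).

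As a group, lost regions differed from kept ones in peak width rather than in position, and the difference in fold enrichment depended on list support. The median peak width in wt replicate 3 was 388 bp (quartiles 310.2 and 553.2) at the 402 lost regions with such a peak and 704 bp (516 and 984) at 11873 kept regions. Median fold enrichment was 6.76 at 236 lost and 7.99 at 5302 kept regions with a wt replicate 1 peak. The fold difference was not seen within the regions of wt replicates 1 and 3 only, where the medians were 6.76 at lost and 6.65 at kept regions, while the widths there were 388 and 574.5 bp. In regions of wt replicates 1 and 2 only, the median folds were 6.24 at 12 lost and 6.37 at 35 kept regions. In regions of all 3 wt lists they were 7.48 at 17 lost and 8.54 at 4211 kept regions. Promoters made up 23.2% of lost regions (96 of 414, 19.4 to 27.5) and 22.3% of kept regions (21.6 to 23.1). Intergenic regions made up 32.9% of lost (28.5 to 37.5) and 35.7% of kept (34.9 to 36.6), and introns after the first 24.9% and 22.3%. The median distance to the annotated start site was 19423.5 bp at lost and 21029 bp at kept regions, and 40.3% and 38.2% lay within 10 kb. Of the lost regions 10 had an E12KO peak within 500 bp and 91 within 5 kb, and the median distance to the nearest E12KO peak was 17648 bp.

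**Figure D3:**
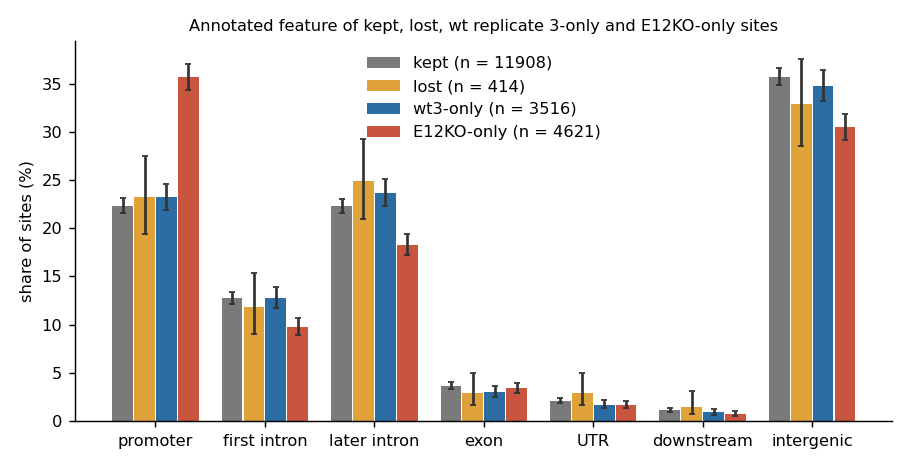
Share of sites, in percent, by the feature the authors' tables annotate (horizontal axis), for kept (grey), lost (orange), wt replicate 3-only (blue) and E12KO-only (red) sites; error bars are 95% Wilson intervals for counting error. Promoters held 22.3% of kept, 23.2% of lost, 23.2% of wt replicate 3-only and 35.7% of E12KO-only sites.

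Most genes with a lost region still had an E12KO peak. The lost regions were annotated to 400 genes, of which 258 also had a kept region and 318 had an E12KO peak at any distance. The other 82 had none. Of 3795 genes with a consensus region within 10 kb of the start site, 3691 had an E12KO peak within 10 kb and 104 had none. Chrm3, a muscarinic receptor gene, had 3 lost regions and 1 kept region. Genes with 2 lost regions often kept many more. Auts2 kept 14 regions, Ntm 13, Tbl1xr1 12, Camta1 7 and 1700025G04Rik 4, while Lrrc8d, Smad5 and Rhcg kept 1 each.

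The genes of the lists examined lost about the same share of their regions as all genes did. The 18 lists, which include lymphoid, muscle and ribosomal protein genes, hold 404 genes, of which 157 had a consensus region within 10 kb, and 156 of these had an E12KO peak within 10 kb. The exception was Numb, which encodes an inhibitor of Notch. Its only consensus region, at the promoter (chromosome 12, 85262115 to 85262879), had peaks of 268 bp in wt replicate 2 and 761 bp in wt replicate 3, none in wt replicate 1 and none in E12KO. At any distance the lists' genes had 796 consensus regions, of which 30 were lost (3.77%, against 3.36% over all consensus regions).

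The Notch pathway, known for holding back the differentiation of neural progenitors, lost 4 of 70 regions. Besides Numb and Maml3 these were the promoter of Mfng, a Fringe glycosyltransferase gene (547 bp in wt replicate 1 and 317 bp in wt replicate 3, 8.73-fold), and an intergenic region 100464 bp upstream of the effector gene Hey1 (6.78-fold). Mfng kept another region, with 2 E12KO peaks within 10 kb. Neural stem cell markers lost 3 of 80 regions, at Hopx, the chromatin protein gene Hmga2 and the SoxB1 factor gene Sox3. The BMP and TGF-β list lost 3 of 47, of which 2 were at the signal transducer gene Smad5 (4.33-fold and 12.8-fold) and 1 in an intron of the receptor gene Bmpr1b (6.03-fold). The Wnt list lost 2 of 66, at the receptor gene Fzd9 and 63682 bp upstream of Ctnnb1, which encodes β-catenin (8.03-fold). E proteins and Id factors lost 1 of 45, in an intron of Tcf12, which encodes the E protein HEB. That region was in wt replicates 2 and 3, and Tcf12 had 5 E12KO peaks within 10 kb. The proneural bHLH list lost 0 of 24 regions and the Sonic hedgehog list 0 of 31.

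Axon guidance genes, the list with most consensus regions, lost 9 of 96, beside 3.36% over all consensus regions. The regions were at the semaphorin genes Sema3a and Sema6d (2 regions) and the receptor genes Robo1, Unc5a, Unc5b, Epha4, Ephb1 and Plxna4. Each was in only 2 of the 3 wt lists, and none lay within 10 kb of the start site. Unc5a had the highest fold of them, 12.9, with widths of 351 and 383 bp in wt replicates 1 and 3. Single lost regions were annotated to the cell cycle gene E2f2, in intron 1 (7.42-fold; 364 and 1018 bp in wt replicates 1 and 3), the growth factor gene Fgf9, the projection neuron genes Fezf2 and Reln, the interneuron gene Calb2, the astrocyte gene Nfib and the oligodendrocyte precursor gene Pdgfra.

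E12KO-only sites were more often promoters than the sites found in wt replicate 3 alone. They made up 18.3% of E12KO peaks (17.8 to 18.8), beside 14.5% of wt replicate 3 peaks found in no other of the 4 lists (3516 peaks, 14.1 to 15.0). The promoter share was 35.7% at E12KO-only sites (34.3 to 37.1) and 23.2% at wt replicate 3-only sites (21.8 to 24.6). Of all peaks, 27.5% were at promoters in E12KO and 24.9% in wt replicate 3. Of E12KO-only sites 24.1% covered a start site, beside 14.7% of wt replicate 3-only sites, and the median distances were 9727 and 19068.5 bp. The shares in introns after the first were 18.3% and 23.7%, and the intergenic shares 30.5% and 34.8%. The 1118 peaks found in wt replicate 2 alone lay at the other end, with 5.90% at promoters (4.67 to 7.44) and 58.0% intergenic. The promoter share differed more between these wt replicate 2 and 3 sites than between E12KO-only and wt replicate 3-only sites. That wt comparison is not matched in length, since wt replicate 2 held 12772 peaks, wt replicate 3 24194 and E12KO 25229. The range over these 3 sets of single-list sites is the only spread available.

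Peak width moved with the promoter share. E12KO-only peaks had a median width of 420 bp (quartiles 307 and 626) and wt replicate 3-only peaks 337 bp (270 and 454). Among sites of 500 to 799 bp the promoter share was 52.3% in E12KO-only (49.4 to 55.2) and 50% in wt replicate 3-only sites (45.8 to 54.2). Under 300 bp the shares were 15.4% (13.4 to 17.7) and 11.5% (9.90 to 13.3), and from 300 to 499 bp they were 23.3% (21.4 to 25.3) and 19.3% (17.4 to 21.4). With 1200 bp and more they were 89.0% of 145 sites and 80% of 20. Weighted to the widths of the wt replicate 3-only sites, the E12KO-only promoter share was 26.9%, beside 23.2%. At 19508 sites where 1 wt replicate 3 peak overlapped exactly 1 E12KO peak and no other did on either side, the E12KO peak was the wider one at 62.8%, with a median log2 width ratio of 0.12, which was 0.17 at promoters and 0.10 elsewhere. Between wt replicates 2 and 3 the same ratio was −0.58, −0.81 at promoters and −0.54 elsewhere. Widths at promoters thus differed more between these wt lists, which are unlike in length, than between E12KO and wt replicate 3.

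**Figure D4:**
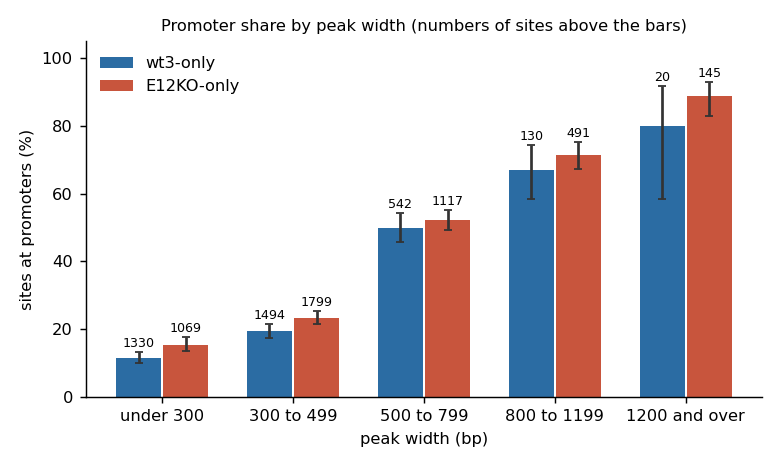
Share of sites at promoters, in percent, by peak width in bp (horizontal axis), for wt replicate 3-only (blue) and E12KO-only (red) sites, with the number of sites above each bar and 95% Wilson intervals for counting error. The share rises with width in both sets, from 11.5% and 15.4% under 300 bp to 80% and 89.0% at 1200 bp and over.

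Between the longest lists, the excess of E12KO peaks was larger at promoters than elsewhere. Of the 6945 E12KO promoter peaks 26.7% had no wt replicate 3 peak (25.7 to 27.7), and of the 6028 wt replicate 3 promoter peaks 15.1% had no E12KO peak (14.2 to 16.0). Away from promoters the shares were 18.2% (17.7 to 18.8) and 16.6% (16.04 to 17.1). The shares of peaks found in neither wt replicate 1 nor 2 were close, 50.9% in E12KO and 49.2% in wt replicate 3. Of the peaks that were in wt replicate 3 and in no other wt list, 70.4% had an E12KO peak. The same share was 19.9% for wt replicate 1 and 23.7% for wt replicate 2.

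The 10 widest E12KO-only peaks were all at promoters. The widest lay over the start of Fgfr1, which encodes a receptor for the FGF-2 in the medium (chromosome 8, 26629219 to 26631484; 2266 bp), 15145 bp from the nearest wt peak. Fgfr1 had peaks in every list, 4, 4 and 5 in wt replicates 1 to 3 and 7 in E12KO. Of these, 2, 1 and 1 in wt replicates 1 to 3 and 2 in E12KO lay within 10 kb of an annotated start site. Next came the promoters of Gprc5b, an orphan receptor gene (2168 bp), Inppl1, which encodes the lipid phosphatase SHIP2 (2038 bp), Tgif1, a homeodomain repressor of TGF-β signalling (2027 bp), and P4ha1 (1983 bp). The others were at Trp53i11 (1972 bp), the formin gene Fhod1 (1946 bp), Frmd4a (1880 bp), the histone methyltransferase gene Ehmt2 (1874 bp) and the fibulin gene Efemp2 (1846 bp). Fhod1, Ehmt2 and Efemp2 had no annotated peak in any wt list, while Frmd4a had 24 in wt replicate 3 and 24 in E12KO. Some lay close to a wt peak, with 304 bp between the Fhod1 peak and the nearest one, which is annotated to another gene, and 493 bp at Tgif1. The widest wt replicate 3-only peaks were of the same kind. They lay in an intron of Rasa3 (1928 bp) and at promoters such as those of Trim24 (1537 bp), the PI3-kinase subunit gene Pik3r1 (1511 bp) and Slc35f5 (1507 bp).

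Genes with many E12KO-only sites had wt peaks too. Zfp608 had the most E12KO-only sites, 10, among 48 E12KO peaks, where wt replicates 1 to 3 had 21, 31 and 43 peaks. Nfib had 7 of 25, the wt lists having 3, 12 and 22. The focal adhesion gene Tns3 had 7 of 24, against 6, 11 and 18, and the xylosyltransferase gene Xylt1 had 7 of 20, against 5, 12 and 16. An E12KO peak lay within 10 kb of the start site of 7856 genes and a wt replicate 3 peak within 10 kb of 7130. For 1412 of the former (18%) no wt list had such a peak annotated to the gene, and for 772 of the latter (10.8%) none of the other 3 lists had one.

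Pathway genes with such a peak in E12KO alone are given here beside that 18%, and counts for wt replicate 3 alone beside its 10.8%. The 18 lists had 217 E12KO-only and 185 wt replicate 3-only sites at any distance, beside 4621 and 3516 such sites over all genes. In the Wnt list 22 genes had an annotated E12KO peak within 10 kb and 16 had a wt replicate 3 peak there. Of the 16, 0 had it in wt replicate 3 alone, and of the 22, 4 had none in a wt list. These were the receptor genes Fzd1 (926 bp, 84 bp from the start), Fzd3 (a promoter peak of 1526 bp, 3093 bp from a wt peak of another annotation, and one of 335 bp) and Fzd7 (a promoter peak of 1483 bp and one of 292 bp), and the ligand gene Wnt5b (588 bp). In the axon guidance list there were 6 (of 21 genes with an E12KO peak within 10 kb) and 1 (of 16 with a wt replicate 3 peak there). The 6 were Efnb2 (with 2 peaks in intron 1), Epha7, Sema3a, Nrp2, Unc5c and Dcc, with single peaks of 316 to 1220 bp at the last 5. In the BMP and TGF-β list there were 3 (of 21) and 1 (of 19), with E12KO-only peaks at the ligand gene Bmp2 (742 bp, 520 bp upstream), the receptor gene Acvr1 (314 bp, with a wt peak of another gene 210 bp away) and the mediator gene Smad4 (616 bp). Ribosomal protein genes gave 4 (of 15) and 2 (of 13), with E12KO-only peaks at Rps19 (1011 bp), Rps3 (500 bp, 8073 bp from a wt peak) and Rpl5 (338 bp) among them. The Notch list had 2 (of 26) and 1 (of 24), the 2 being the promoters of Notch2 (1295 bp) and Jag2, a Notch ligand gene (433 bp, 241 bp upstream). The cell cycle exit list had 1 (of 14) and 1 (of 14), with an E12KO-only peak at the promoter of the retinoblastoma gene Rb1 (1026 bp). Neural stem cell markers had 1 (of 24) and 0 (of 23), with an E12KO-only peak at the promoter of Sox3 (1152 bp, which begins 64 bp upstream). Each of these E12KO shares was below 18%. In some other lists the count was higher in wt replicate 3, with 0 (of 14) in E12KO and 2 (of 16) in wt replicate 3 among cell cycle drivers. The counts were 1 (of 8) and 2 (of 10) among interneuron genes and 1 (of 14) and 2 (of 15) among astrocyte genes. Among lymphoid genes they were 0 (of 3) and 1 (of 4). All of these counts are small. Smad6, an inhibitory SMAD gene chosen after its values were seen, had 4 E12KO peaks, all E12KO-only and none within 10 kb, and no wt peak.

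The palindromic E-box was found in a smaller share of E12KO-only promoters than of kept ones, with wt replicate 3-only promoters in between. Each group was taken as the genes with a peak over the start site and 1 promoter in the RefSeq table, and the 2 motifs were searched on both strands of the 300 bases. CAGCTG was found in 23.1% of 308 promoters with a region kept from all 3 wt lists and in 19.7% of 1201 kept promoters (17.6 to 22.1). It was found in 16.0% of 318 wt replicate 3-only promoters (12.4 to 20.5) and in 11.6% of 640 E12KO-only promoters (9.31 to 14.3), beside 15.0% of all protein-coding promoters. The wt replicate 3-only and E12KO-only intervals overlap. These groups hold sites of a single list, whereas kept promoters had a region in 2 or more wt lists. For CAGGTG the shares were 18.8%, 14.9%, 16.0% and 17.5%, beside 19.3%. Of 37 lost promoters 24.3% held each motif. Either motif was in 43.2% of lost promoters (28.7 to 59.1), 31.6% of kept (29.0 to 34.2), 28.6% of wt replicate 3-only (23.9 to 33.8) and 26.9% of E12KO-only promoters (23.6 to 30.4), beside 31.0% of all protein-coding promoters. The median ratio of observed to expected CpG was 0.805 in the first group, 0.816 in kept, 0.756 in lost, 0.780 in wt replicate 3-only and 0.800 in E12KO-only promoters, beside 0.559 over all protein-coding promoters. The peaks are wider than this window and their own sequence was not used here.

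**Figure D5:**
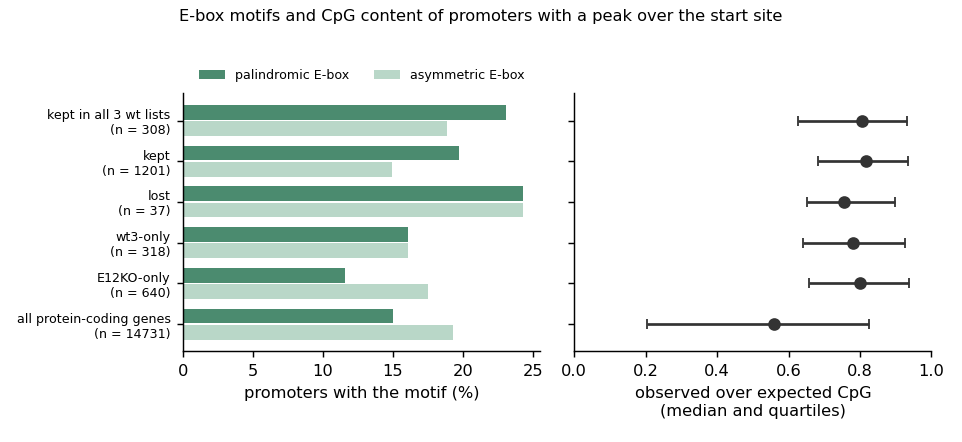
Left, percent of promoters (250 bases before to 50 after the start) that hold the palindromic E-box CAGCTG (dark green) or the asymmetric E-box CAGGTG (light green), by group of genes with a peak over the start site; right, the ratio of observed to expected CpG, with points at the median and bars over the quartiles. The palindromic E-box falls from 23.1% of promoters kept from all 3 wt lists to 11.6% of E12KO-only promoters, with wt replicate 3-only promoters at 16.0%. The median CpG ratio is 0.805 in promoters kept from all 3 wt lists and 0.800 in E12KO-only promoters.

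Tcf3, the gene that encodes both forms, had a promoter peak in wt replicate 3 (chromosome 10, 79895814 to 79897054; 1241 bp) and in E12KO (79896025 to 79896882; 858 bp). Both lists also had an intergenic peak upstream, of 240 bp in wt replicate 3 and 258 bp in E12KO. The shorter wt lists had none at this gene, so its regions were not consensus regions. Peak positions do not show which exon is missing, and the genotype label cannot be checked from them.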

How the data were processed

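E2A ChIP-seq peak lists of 3 wt samples and 1 E12KO sample were analysed; the E47KO and input samples were not used here. The genome build was mm9, and the tools were MACS2 2.1.0, BWA 0.7.13 and Picard 1.119, per the submitters' processing notes; which settings they ran with is not given in the sources used. The authors deposited 1 annotated peak list per library. Per the file headers, each gives peak coordinates, an annotated feature, the nearest gene and the distance to its start site. The deposited list of wt replicate 1 also gives the pileup signal (coverage height), −log10 p and −log10 q, and the fold enrichment (a ratio of ChIP to background) of each peak, which served only to rank and describe peaks within that list. Its name carries another false discovery rate label than the others, and its annotation calls promoters up to 2000 bp from a start site, against under 1 kb in the other lists. A region therefore took its annotation from wt replicate 3, else from wt replicate 2, else from wt replicate 1.

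Overlap needed at least 1 bp. Shares were given with 95% Wilson intervals (Python 3.11.15, pandas 2.3.3, numpy 2.4.6, scipy 1.17.1). The overlap scripts were tested on simulated data. Promoter sequences came from RefSeq and were matched by gene symbol. No test between genotypes was made with 1 knockout library. Named were all lost regions in all 3 wt lists, the 10 lost regions with the highest −log10 q, the 10 lost promoters and 10 E12KO-only peaks of greatest width, the 5 widest wt replicate 3-only peaks, the 5 genes with most lost or E12KO-only sites, list members with a lost region, up to 3 members per list with a new E12KO peak within 10 kb, and Tcf3; others were chosen after their values were seen. Some genes covered by these rules are left out of the text. The sites, gene lists and rules were chosen with earlier results of these data known. The lists cover Id factors and E proteins, proneural bHLH factors, neural stem cell, astrocyte, oligodendrocyte, projection neuron, interneuron, lymphoid, muscle, ribosomal, cell cycle and cell cycle exit genes, axon guidance, and the Sonic hedgehog, Wnt, Notch, BMP and TGF-β, and FGF and EGF pathways. Alternatives left out each wt replicate and changed the overlap rule, the list support, the peak width and the annotation source.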

Additional observations from a re-analysis of the deposited data

How the results depend on the processing

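The share of consensus regions kept in E12KO (96.6%) ran from 95.9% to 99.3% when 1 wt replicate was left out, and was 99.6% for regions in all 3 wt lists and 77.8% for regions of any wt list. The share of regions of 2 wt lists found in E12KO (99.3% for wt replicates 1 and 2) was 95.9% for wt replicates 1 and 3 and 98.2% for wt replicates 2 and 3. The share of E12KO peaks in no wt list (18.3%) ran from 19.1% to 50.9% without 1 wt replicate, the highest value being that without wt replicate 3, which holds most wt peaks. It was 17.5% where peaks within 500 bp counted as shared and 20.01% with peaks of at least 300 bp, where the share for wt replicate 3 was 13.2% in place of 14.5%. The promoter share of lost regions (23.2%) was 17.6% in all 3 wt lists (3 of 17 regions), and 22.1% to 24.1% without 1 wt replicate. The promoter share of E12KO-only sites (35.7%) ran from 31.7% to 36.3% without 1 wt replicate and was 26.9% weighted to the widths of wt replicate 3-only sites. The alternatives for this share were chosen after seeing the data. Changes on leaving out a list or changing the support follow from which peaks enter, and the cause of the other changes was not tested. An overlap of 50% of the shorter peak moved none of these shares beyond its interval. No paired analysis was possible because E12KO has 1 library with no replicate number. Unknown read depth and unknown thresholds limit every count of missing peaks.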

Other observations

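The lost share was highest on chromosome 5. On chromosome 5, chosen after the values were seen, 43 of 719 consensus regions were lost (5.98%, 95% Wilson interval 4.47 to 7.96), beside 371 of 11603 elsewhere (3.20%), and the share on each other chromosome lay between 1.51% and 4.68%. The highest of these, 4.68% on chromosome 14, has an interval of 3.11 to 6.99, which overlaps that of chromosome 5. The chromosome 5 share was 20.5% of regions in wt replicates 1 and 3 only, 4.77% of those in wt replicates 2 and 3 only and 2% of those in all 3 lists. Over all chromosomes these shares were 16.4%, 2.62% and 0.402%. Of the 17 lost regions in all 3 lists, 5 lay on chromosome 5. The lost regions in all 3 lists there were at Hopx, Med13l, Afap1, Lrrc8d and Lcorl. No test of this difference was made.

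Outside promoters, the widest E12KO-only peaks were at the kinesin gene Kif2c (1555 bp, 6857 bp upstream), at Nemp2 (1537 bp) and at the glycerol-3-phosphate dehydrogenase gene Gpd1 (1464 bp, 1029 bp upstream). Near other start sites, E12KO-only peaks lay at the interneuron gene Gad1 (297 bp, 3648 bp upstream), the intermediate progenitor gene Eomes (381 bp, 645 bp upstream) and the bHLH gene Nhlh1 (662 bp), none of which had a wt peak annotated to it within 10 kb. Such genes were 1 of 8 interneuron, 1 of 20 projection neuron and 1 of 8 proneural genes with an E12KO peak within 10 kb, beside 18% over all genes. For wt replicate 3 alone the counts were 2 of 10, 0 of 18 and 1 of 8, beside 10.8%.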
